A study of Bos taurus with 2 samples.

Results

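The genes described here are 9 regulators that restrain the cell division cycle, read in single cultured bovine satellite cells: the CDK inhibitors CDKN1A, CDKN1B, CDKN1C, CDKN2C and CDKN2D, the CDK-associated phosphatase CDKN3, and the retinoblastoma family genes RB1, RBL1 and RBL2. They were chosen by name, as a family, and all 9 were found among the 21867 genes of the deposited feature list, of which 16816 had at least 1 unique molecular identifier (UMI, a tag that marks 1 captured RNA molecule). All cells came from the longissimus muscle of 1 male Holstein calf aged 2 weeks and were grown for 1 week in DMEM with 10% fetal bovine serum, with no treatment group. From these cells, 2 libraries, called replicates 1 and 2, were made on the 10x Genomics platform, so their spread reflects how libraries were made and sequenced and not differences between animals. The study divided the 19096 cells into 15 clusters, and these clusters are used here under their numbers. CDKN2A and CDKN2B, the other members of the INK4 family, were not analysed here.

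Cyclin-dependent kinases (CDKs) with their cyclins drive a cell from G1 into DNA synthesis and on into mitosis. Inhibitors of the CIP/KIP family, p21 (CDKN1A), p27 (CDKN1B) and p57 (CDKN1C), bind cyclin-CDK complexes, whereas INK4 inhibitors such as p18 (CDKN2C) and p19 (CDKN2D) bind CDK4 and CDK6 and keep them from cyclin D. When CDK activity is low, the retinoblastoma protein and its relatives p107 (RBL1) and p130 (RBL2) hold E2F transcription factors in check, and myoblasts must leave the cell cycle in this way before they fuse into myotubes. CDKN3 is a phosphatase that removes an activating phosphate from CDKs and is not an inhibitor of either family.

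Replicate 1 held 9939 cells with 145631299 UMIs, and replicate 2 held 9157 cells with 137818568 UMIs, with 27 cell barcodes found in both. Levels are given as UMIs per 10000 UMIs, summed over the cells of a group within a library. Clusters 7, 13, 14 and 15 had a median under 3000 UMIs per cell, and values of the rarer genes there rest on few molecules. Scrublet scores placed 0.166% of cluster 13 to 17.2% of cluster 6 among the likely doublets, which were kept. PAX7, the defining marker of satellite cells, had 176 UMIs in all cells together, against 114882 for MYOD1, which marks myoblasts. The glial markers FOXD3 and SOX10 had 0 UMIs and the leukocyte marker PTPRC had 1. CD68, the other immune marker looked up, had 580 UMIs, with its highest mean level in cluster 7 (0.148).

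The genes differed widely in the number of UMIs captured, which depends on capture at the 3' end as well as on the level of a gene. CDKN1C (ENSBTAG00000031184) had 203995 UMIs and was seen in 67.1% of cells, and CDKN1A (ENSBTAG00000008353) had 44627 UMIs in 56.5% of cells. CDKN2C (ENSBTAG00000011059) followed with 11956 UMIs, and CDKN3 (ENSBTAG00000019496) and RB1 (ENSBTAG00000006640) had 6952 and 7174 UMIs. CDKN1B (ENSBTAG00000018254), CDKN2D (ENSBTAG00000010731), RBL2 (ENSBTAG00000016243) and RBL1 (ENSBTAG00000011541) had 5146, 3831, 3434 and 2509 UMIs. Over the 11 deeper clusters, the highest level of CDKN1C was 95.1 times its lowest, while this ratio was 20 for CDKN1A, 14.9 for CDKN2D and 8.78 for CDKN3. RBL2 and CDKN1B varied least, with ratios of 1.88 and 2.16.

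**Figure D1:**
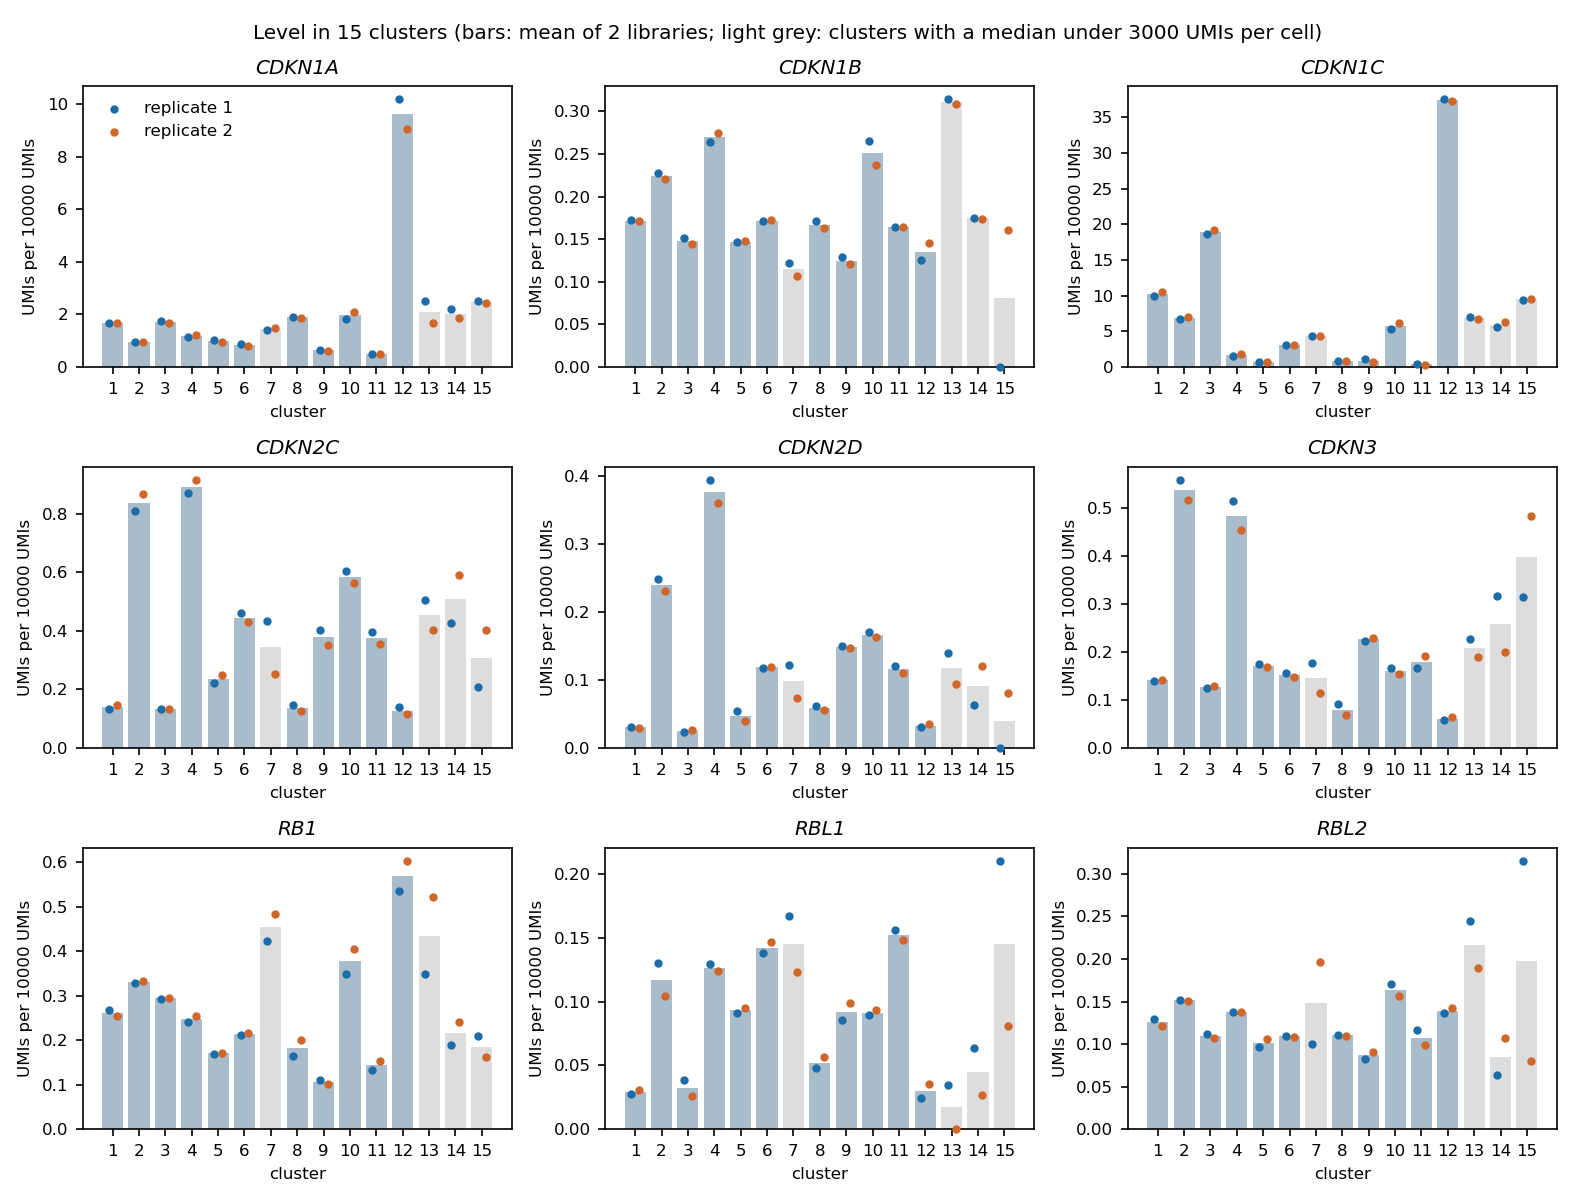
Level of each gene, in UMIs per 10000 UMIs, in the 15 clusters, with bars at the mean of 2 libraries, points for each library and light grey bars for the 4 clusters under 3000 UMIs per cell. CDKN1A, CDKN1C and RB1 peak in cluster 12, while CDKN2C, CDKN2D and CDKN3 peak in clusters 2 and 4.

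Cluster 12, the most differentiated cells by the level of the myogenic factor MYOG, held the highest levels of both main CIP/KIP genes. The CDKN1C level was 37.5 in replicate 1 and 37.3 in replicate 2 of cluster 12, 18.6 and 19.1 in cluster 3, and 9.95 and 10.6 in cluster 1. Each of these clusters stood apart from the next in both libraries. At the other end were cluster 5, with 0.685 and 0.775, and cluster 11, with 0.456 and 0.330. For CDKN1A, cluster 12 had 10.2 and 9.05, and no other cluster exceeded a mean of 2.47, a value from the shallow cluster 15. Clusters 15, 13, 14, 10 and 8 overlapped with their neighbours in the order of CDKN1A levels, and the lowest levels were again those of cluster 11, with 0.482 and 0.481.

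In single cells thinned to 5000 UMIs each, CDKN1C had a median of 19 UMIs in cluster 12, 8 in cluster 3 and 3 in cluster 1, and all thinned cells of cluster 12 had at least 1. Cluster 11 had the lowest share of thinned cells with a CDKN1C UMI among the deeper clusters, at 13.7% (43.4% of its cells before thinning). No cell type known to lack the gene was at hand, so no background was measured. Whether the UMIs in cluster 11 came from expression was not tested. CDKN1A had a median of 4 UMIs in thinned cells of cluster 12. Of the 517 thinned cells with at least 5 CDKN1A UMIs, 272 (52.6%) lay in cluster 12, and 68 and 69 lay in clusters 1 and 3. At least 5 CDKN1C UMIs were present in 73.5% of these 517 cells and in 24.6% of the other thinned cells, which is a description with no test.

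The INK4 genes and CDKN3 had another order. CDKN2C was highest in cluster 4, with 0.870 and 0.913, and next in cluster 2, with 0.809 and 0.866, against 0.140 and 0.115 in cluster 12. CDKN2D had 0.394 and 0.361 in cluster 4 and 0.249 and 0.231 in cluster 2, and its lowest level among the deeper clusters was in cluster 3, with 0.0238 and 0.0268. CDKN3 was highest in cluster 2, with 0.558 and 0.517, and lowest in cluster 12, with 0.0585 and 0.0639. For all 3 genes the highest and the lowest of these clusters lay far apart beside the spread of the libraries. Neighbours in the order could lie close: CDKN2C levels of cluster 12 overlapped with those of clusters 1, 3 and 8. CDKN3 in cluster 4, with 0.515 and 0.454, came near its level in cluster 2. Clusters 2 and 4 also had the largest shares of scored cells called G2/M, 98.1% and 87.4%. Cluster 10 came next, with 50.5% of 558 scored cells.

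Within the retinoblastoma family the 3 genes differed in order. RB1 was highest in cluster 12, with 0.537 and 0.602, and lowest in cluster 9, with 0.111 and 0.102. RBL1 was highest in cluster 11, with 0.156 and 0.148, which overlapped with the shallow clusters 15 and 7 but not with cluster 6, and its lowest levels among the deeper clusters, in clusters 1, 12 and 3, overlapped too. Levels of RBL2 ran among the deeper clusters only from 0.0868 in cluster 9 to 0.163 in cluster 10. CDKN1B stood likewise within a narrow range, from 0.125 in cluster 9 to 0.270 in cluster 4.

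Library sums of each cluster were set against those of the remaining cells by edgeR's quasi-likelihood test, 2 sums against 2, with Benjamini-Hochberg adjustment over all genes tested. Clusters were made from the same counts, these genes included, so the test describes the spread between libraries and is no independent evidence. Over the 135 pairs of gene and cluster, 30 were called higher and 51 lower at an adjusted p under 0.05, where 14.9% of all pairs of gene and cluster tested were called higher and 17.1% lower. With the library as a block the counts were 34 and 58, and the shares of all genes called with the block were not counted. In cluster 12, 4 of the 9 genes were called higher (24.8% of all genes) and 4 lower (29.5%). The higher genes were CDKN1A, CDKN1C, RB1 and RBL2, and the lower ones were CDKN2C, CDKN2D, CDKN3 and RBL1, with CDKN1B the only gene not called. The RBL2 call was lost without either library of the remaining cells (adjusted p = 0.0588 and 0.0575) and with library totals without TMM scaling (0.0993). Cluster 4 had 6 genes called higher (16.3%), and CDKN1A and CDKN1C lower (15.3%), where RBL2 was lost without any 1 of the 4 sums (adjusted p from 0.0827 to 0.245). No gene was called in the shallow clusters 13 and 15, where 17.3% and 0.273% of all genes were called in either direction, although with the library as a block CDKN1A and RBL1 were called in cluster 13 (adjusted p = 0.0177 and 0.0398).

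A grouping that did not use the counts of these genes was made from lists of 43 S phase and 54 G2/M genes, which scored 15996 cells with at least 5000 UMIs as G1 (5608 cells), S (4634) or G2/M (5754). The classes are ranges of a score and not types, and 9.10% of scored cells lay within 0.05 of the cut. Of 27 pairs of gene and comparison between classes, 18 were called higher (19.2% of all pairs tested) and 7 lower (17.3%). From G1 to S these were 4 higher and 4 lower (24.5% and 21.5% of all genes), from G1 to G2/M 6 higher and 3 lower (23.2% in each direction), and from S to G2/M 8 higher and 0 lower (9.97% and 7.22%). All 16 tested genes of a muscle differentiation list, MYOG included, were lower in S-scored and in G2/M-scored cells than in G1-scored cells, so class and differentiation moved together. Median depth per cell was 14623.5 UMIs in G1-scored, 16533.5 in S-scored and 17751 in G2/M-scored cells.

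CDKN1A and CDKN1C were highest in G1-scored cells. The CDKN1C level was 14.7 and 15.1 in G1-scored cells, 2.22 and 2.18 in S-scored cells and 4.70 and 5.14 in G2/M-scored cells. From G1 to S it fell by 2.81 on the log2 scale (SE 0.04, adjusted p = 1.33e-06, edgeR's quasi-likelihood test), and from S to G2/M it rose by 1.16 (SE 0.05, adjusted p = 0.000137). CDKN1A had 2.92 and 2.76 in G1-scored, 0.858 and 0.871 in S-scored and 1.06 and 1.10 in G2/M-scored cells, with log2 fold changes of -1.78 from G1 to S and 0.32 from S to G2/M. Neither gene overlapped between any classes. Thinned to 5000 UMIs, 73.9% of G1-scored, 33.7% of S-scored and 51.3% of G2/M-scored cells had a CDKN1C UMI, and unthinned these shares were 83.8%, 57.8% and 72.0%.

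CDKN2C, CDKN2D and CDKN3 rose from G1 to S and again from S to G2/M. CDKN2D went from 0.0309 and 0.0304 in G1-scored cells through 0.0827 and 0.0740 to 0.267 and 0.253 in G2/M-scored cells, a log2 fold change from G1 to G2/M of 3.00 (SE 0.07, adjusted p = 1.54e-06, edgeR's quasi-likelihood test). CDKN2C went from 0.115 and 0.124 through 0.319 and 0.311 to 0.730 and 0.748, a log2 fold change of 2.55. For CDKN3 the levels were 0.0798 and 0.0779, 0.146 and 0.145, and 0.470 and 0.436, a log2 fold change of 2.44. The 3 genes were thus highest in G2/M-scored cells, where CDKN1A and CDKN1C were below their G1 levels. CDKN1B, which encodes a protein known to be controlled largely by its degradation, differed less, with a log2 fold change of 0.37 from G1 to G2/M.

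In the retinoblastoma family, RBL1 was the gene with the largest difference between G1 and S. Its level was 0.0309 and 0.0309 in G1-scored, 0.125 and 0.131 in S-scored and 0.110 and 0.0984 in G2/M-scored cells, a log2 fold change from G1 to S of 1.99 (SE 0.08, adjusted p = 2.26e-05, edgeR's quasi-likelihood test). The lower level in G2/M than in S was not called (adjusted p = 0.0664) and was called with the library as a block (adjusted p = 0.00306). RB1 had 0.292 and 0.299 in G1-scored, 0.173 and 0.187 in S-scored and 0.258 and 0.275 in G2/M-scored cells, and fell by 0.78 on the log2 scale from G1 to S. From S to G2/M RB1 rose by 0.57. RBL2 did not pass the test from G1 to S (adjusted p = 0.0862, or 0.0300 with the block) and rose by 0.41 from S to G2/M, a call lost without replicate 1 of the G2/M sums (adjusted p = 0.0651) or of the S sums (0.0562). The calls of CDKN1B from G1 to S and of RBL2 from G1 to G2/M were lost without any 1 of the 4 sums (adjusted p from 0.0913 to 0.181 and from 0.0596 to 0.140). That of RB1 from G1 to G2/M was lost without replicate 1 of the G2/M sums (0.0872) or of the G1 sums (0.0588).

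**Figure D2:**
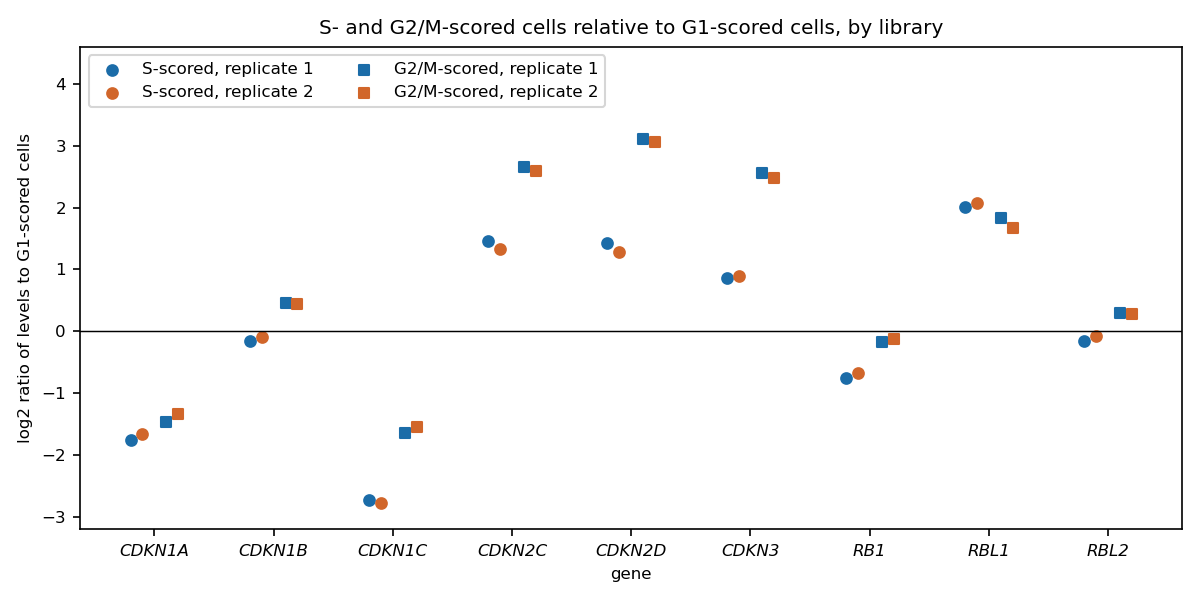
Log2 ratio of the level in S-scored (circles) and G2/M-scored cells (squares) to the level in G1-scored cells, for each gene (horizontal axis) and library (blue replicate 1, orange replicate 2). CDKN1A and CDKN1C lie below 0, CDKN2C, CDKN2D, CDKN3 and RBL1 above 0, and the libraries lie close together.

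To compare cells within 1 score class, G1-scored cells were divided by their MYOG UMIs, since MYOG is the transcription factor of early myocyte differentiation. Cells with at least 5 MYOG UMIs (1585 cells) were compared with cells with 0 (3012 cells). Of the first class, 52.7% lay in cluster 3 and 35.8% in cluster 12, and of the second, 43.9% lay in cluster 1 and 30.0% in cluster 8. Median depth was 17442 and 13440.5 UMIs per cell, so cells with MYOG UMIs were also deeper, and classes cut after thinning are given below where they changed a call. Among the 9 genes, 4 were called higher (26.2% of all genes tested) and 2 lower (25.2%). The scoring genes still differed between the MYOG classes. Of 40 S phase genes tested, 4 were called higher and 19 lower, with a median log2 fold change of -0.26. Of 54 G2/M genes, 8 were called higher and 17 lower, with a median of -0.19. The part of these cell cycle differences in the values below was not tested.

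CDKN1C had 29.3 and 30.1 in cells with at least 5 MYOG UMIs and 5.78 and 6.03 in those with 0, a log2 fold change of 2.44 (SE 0.05, adjusted p = 3.93e-07, edgeR's quasi-likelihood test). CDKN1A had 5.24 and 5.07 against 1.67 and 1.52, a log2 fold change of 1.80 (SE 0.06, adjusted p = 2.44e-06). RB1 had 0.409 and 0.428 against 0.215 and 0.223, a log2 fold change of 1.04 (SE 0.06, adjusted p = 2.24e-05). All 3 calls held in each of 12 alternative settings. RBL2 was called higher, with a log2 fold change of 0.29 (adjusted p = 0.0414), but not without any 1 of the 4 library sums (adjusted p from 0.0879 to 0.221), and with classes from thinned cells its value was -0.03 (adjusted p = 0.916). CDKN2D was called lower, with a log2 fold change of -1.04 (adjusted p = 0.00425), on 51 and 166 UMIs. This call was lost with classes from thinned cells (-0.34, adjusted p = 0.453). That setting also tested thinned counts and used a MYOG threshold of 2, so more than the classes changed. CDKN2C was called lower too (-0.28, adjusted p = 0.0430), but not without any 1 of the sums (adjusted p from 0.0923 to 0.138) and not with classes from thinned cells (0.132).

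Over finer bins of MYOG UMIs, CDKN1C and RB1 rose from bin to bin. With 0, 1, 2 to 4, 5 to 9, 10 to 19 and at least 20 MYOG UMIs, the mean CDKN1C level was 5.91, 9.13, 15.2, 20.4, 24.2 and 35.1. RB1 rose over the same bins from 0.219 to 0.468. CDKN1A had another course, with 1.60, 1.63, 2.37, 2.39, 3.44 and 6.80, so that most of its range lay in cells with at least 10 MYOG UMIs. These are values without a test, and cells with many MYOG UMIs were also deeper, with medians from 13440.5 UMIs in the first bin to 18458 in the last.

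**Figure D3:**
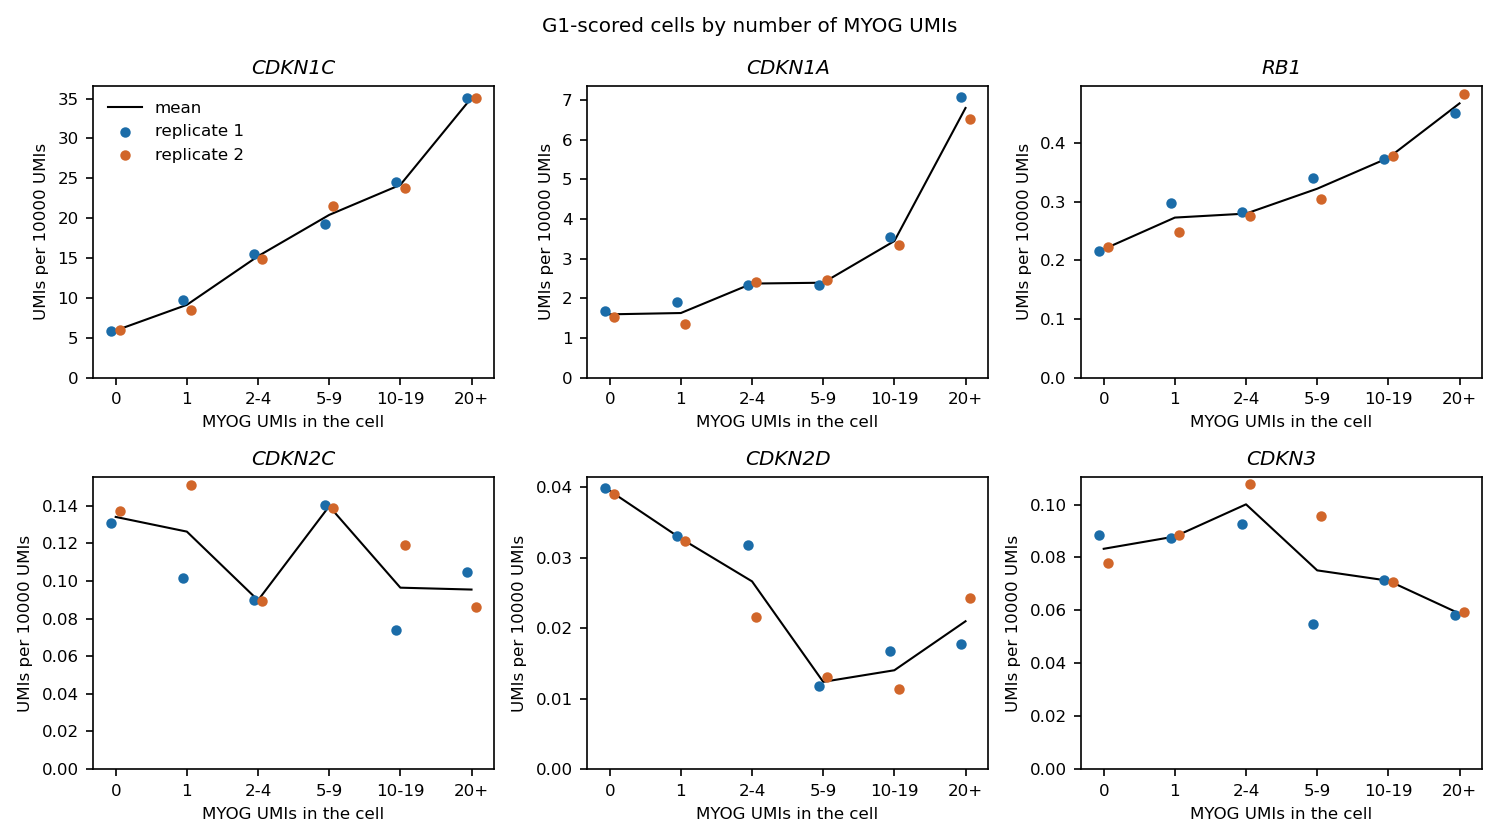
Levels of 6 genes in G1-scored cells by the number of MYOG UMIs in the cell, with points for each library and lines through their means. CDKN1C climbs in every bin from 5.91 to 35.1, CDKN1A climbs mostly above 10 MYOG UMIs, and CDKN2D has 0.0395 at 0 MYOG UMIs and 0.0124, 0.0140 and 0.0210 in the last 3 bins, on 6 to 34 UMIs.

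A further division by MYOD1, the myoblast determination factor, was added after the other values were known and was not tested. The mean CDKN1C level was higher in each bin with more MYOD1 UMIs in every score class, although in G1-scored cells the bins of 5 to 9 and of at least 10 overlapped between the libraries. In G2/M-scored cells its mean level was 0.490 with 0 MYOD1 UMIs, 2.62 with 1 to 4, 6.22 with 5 to 9 and 7.16 with at least 10, and in S-scored cells it was 0.480, 1.24, 2.95 and 4.53. RB1 went from 0.143 to 0.332 over the bins of G2/M-scored cells. The bins held different clusters: of G2/M-scored cells with 0 MYOD1 UMIs, 40.2% lay in cluster 4 and 34.0% in cluster 9, and of those with at least 10, 56.8% lay in cluster 2. In S-scored cells the share of cluster 6 was 60.9% with at least 10, while clusters 5, 9 and 11 held 30.9%, 28.2% and 19.6% of the cells with 0. Median depth in G2/M-scored cells was 17267 UMIs with 0 and 20494 with at least 10, and the part of cluster and depth was not tested. CDKN2C did not follow, with 0.685, 0.773, 0.702 and 0.756 in the same bins of G2/M-scored cells.

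**Figure D4:**
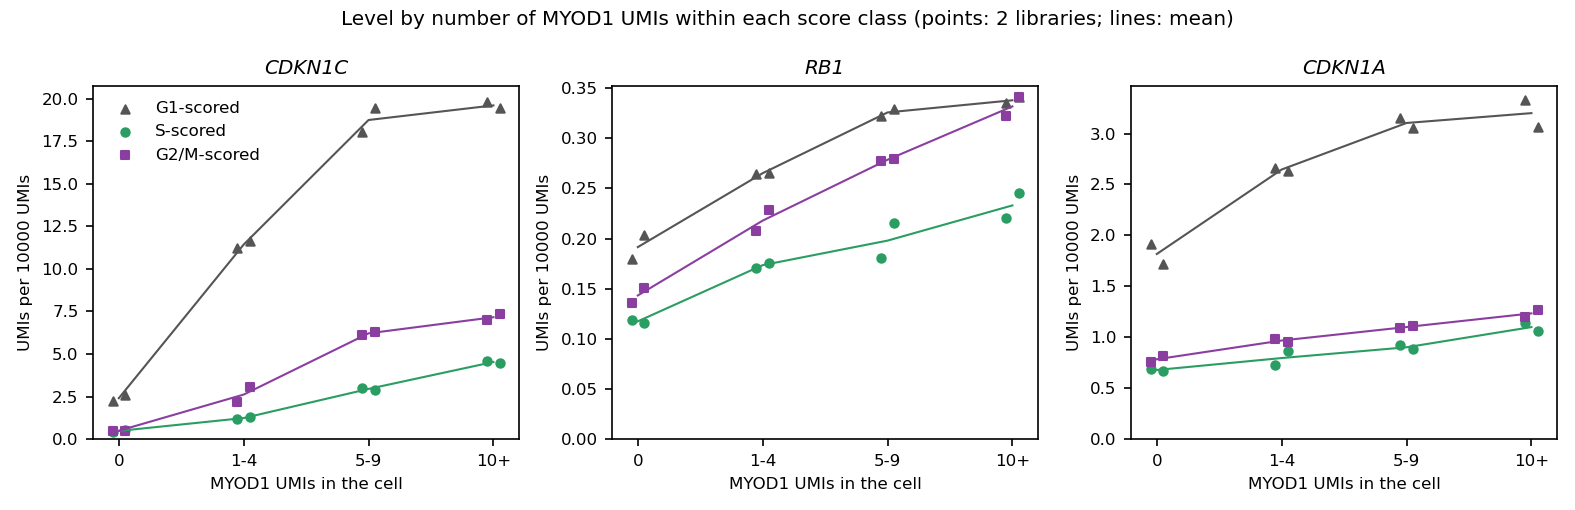
Levels of CDKN1C, RB1 and CDKN1A by the number of MYOD1 UMIs in the cell, for G1-, S- and G2/M-scored cells, with points for each library and lines through their means. The mean of CDKN1C is higher in each bin with more MYOD1 in all 3 classes and is highest in G1-scored cells throughout.

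Clusters were also compared in 8 pairs, of which 6 are steps in the study's ordering of its myogenic clusters. Of 72 pairs of gene and step, 30 were called higher in the first cluster (16.8% of all pairs tested) and 10 lower (15.1%). The step from cluster 8 to cluster 1, which are both mostly G1-scored, had CDKN1C, CDKN3 and RB1 called higher, 3 genes (17.2%), and CDKN2D and RBL1 lower, 2 genes (16.9%). CDKN1C differed most, with 9.95 and 10.6 in cluster 1 against 0.867 and 0.847 in cluster 8, a log2 fold change of 3.62 (SE 0.05, adjusted p = 1.03e-08, edgeR's quasi-likelihood test). RBL1 was not called without either library of cluster 1 or without replicate 2 of cluster 8 (adjusted p from 0.0539 to 0.101). CDKN1A did not pass the test here (adjusted p = 0.0754), although it was called lower with the library as a block (adjusted p = 0.00451). Of the scored cells, 10.1% in cluster 1 and 3.24% in cluster 8 were called G2/M. In this step 29 of 54 G2/M list genes were called higher and 0 lower, and the part of this difference in the CDKN3 call was not tested. From cluster 1 to cluster 3, CDKN1C rose by 0.92 and RB1 by 0.21, the 2 calls among 9 genes where 21.1% of all genes were called higher. The RB1 call was kept in only 2 of 11 alternatives, and was lost on leaving out any 1 of the 4 library sums.

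Between clusters 3 and 12, CDKN1A took part. It had 10.2 and 9.05 in cluster 12 against 1.76 and 1.67 in cluster 3, a log2 fold change of 2.59 (SE 0.08, adjusted p = 5.58e-07, edgeR's quasi-likelihood test). CDKN1C rose by 1.08 (SE 0.05), RB1 by 1.05 (SE 0.08) and RBL2 by 0.45 (adjusted p = 0.0244), so that 4 of 9 genes were called higher (18.2% of all genes). CDKN3 was called lower (15.6%) and fell by 0.96. The RBL2 call was lost without any 1 of the 4 library sums (adjusted p from 0.0633 to 0.109). CDKN1A levels in clusters 1 and 3 were 1.69 and 1.68 against 1.76 and 1.67 and overlapped between the libraries.

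The steps into cycling clusters had another pattern. From cluster 8 to cluster 5, mostly S-scored, CDKN1A fell by 0.92, with 1.04 and 0.958 in cluster 5 against 1.92 and 1.85 in cluster 8 (adjusted p = 3.99e-05, edgeR's quasi-likelihood test). CDKN3, RBL1 and CDKN2C rose by 1.10, 0.85 and 0.77, so 3 genes were called higher (16.3%) and 1 lower (12.2%). CDKN1C was low in both clusters, and its difference was not called (adjusted p = 0.0502), but was called lower in cluster 5 in 5 of 11 alternatives, among them the block (0.000110). From cluster 5 to the G2/M-scored cluster 4, all 9 genes were called higher, against 9.16% of all genes tested. Over 11 alternatives, CDKN1A kept this call in only 4, RBL1 in 5 and RBL2 in 6. CDKN2D rose by 2.98 (SE 0.14, adjusted p = 1.03e-05), CDKN2C by 1.90, CDKN3 by 1.47, CDKN1C by 1.18 and CDKN1B by 0.84, and the remaining genes by 0.21 to 0.52. In this step CDKN1A was not called without either library of cluster 4 or without replicate 2 of cluster 5 (adjusted p from 0.0695 to 0.216). RBL1 and RBL2 were not called without any 1 of the 4 sums (adjusted p from 0.0691 to 0.141 and from 0.0585 to 0.135).

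Clusters 2 and 4 were both mostly G2/M-scored and differed in CDKN1C. Its level was 6.79 and 7.03 in cluster 2 against 1.59 and 1.77 in cluster 4, a log2 fold change of 2.03 (SE 0.06, adjusted p = 9.39e-06, edgeR's quasi-likelihood test). RB1 was higher as well, by 0.40, so 2 genes were called higher (14.5%) and 3 lower (15.7%). CDKN2D fell by 0.67, CDKN1A fell by 0.33 and CDKN1B fell by 0.28, the last of which was not called without replicate 2 of cluster 2 (adjusted p = 0.101) or of cluster 4 (0.10). CDKN2C and CDKN3 were called with the block alone (adjusted p = 0.0208 and 0.0175). MYOD1 had a mean level of 6.72 in cluster 2 and 2.71 in cluster 4.

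The S-scored clusters 6 and 11 differed in the same gene. CDKN1C had 3.03 and 3.11 in cluster 6 against 0.456 and 0.330 in cluster 11, a log2 fold change of 3.02 (SE 0.12, adjusted p = 9.96e-06, edgeR's quasi-likelihood test). CDKN1A rose by 0.85, RB1 by 0.64 and CDKN2C by 0.31, so 4 genes were called higher (8.75% of all genes). CDKN2C was not called without replicate 1 of cluster 6 or without either library of cluster 11 (adjusted p from 0.0645 to 0.191). MYOD1 had a mean level of 5.75 in cluster 6 and 1.35 in cluster 11. In the pairs 1 and 8, 3 and 1, 2 and 4, and 6 and 11 the cluster with more MYOD1 had more CDKN1C and RB1. The pairs 4 and 5, and 9 and 7 went the same way. Clusters 12 and 3, both mostly G1-scored, did not: MYOD1 was lower in cluster 12 (3.96 against 6.35), while CDKN1C and RB1 were higher. Nor did clusters 5 and 8: MYOD1 was higher in cluster 5 (1.92 against 0.892), while mean CDKN1C was lower (0.730 against 0.857). RB1 had means of 0.170 in cluster 5 and 0.182 in cluster 8, with overlapping libraries. Neither gene was called between clusters 5 and 8, although CDKN1C was called lower in cluster 5 with the library as a block (adjusted p = 0.000110). Other myoblast markers of the study were divided. Mean MYF5 was 1.55 against 1.57 in clusters 1 and 8, and 0.873 against 1.55 in clusters 3 and 1. It was 0.702 against 1.08 in clusters 2 and 4, and 0.878 against 1.06 in clusters 6 and 11. MYF5 was thus lower where MYOD1 was higher in these pairs, while DES was higher. The pattern is one of MYOD1 and not of all myoblast markers.

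Clusters 9 and 7 carried the highest levels of PDGFRA, the marker of fibro-adipogenic progenitors, 1.58 and 1.48 on average. Muscle genes differed between them as well: 12 of 14 tested genes of the muscle differentiation list were lower in cluster 9 and 0 higher, and MYH3, an embryonic myosin, had 4.74 in cluster 7 against 0.125 in cluster 9. The part of these cells in the values below was not tested. CDKN1C had 1.09 and 0.756 in cluster 9 against 4.34 and 4.32 in cluster 7, and RB1 had 0.111 and 0.102 against 0.424 and 0.484, which are log2 fold changes of -1.72 and -1.59 (adjusted p = 0.000178 and 0.000249, edgeR's quasi-likelihood test). CDKN1A fell by 0.69, whereas CDKN3, CDKN2D and CDKN2C rose by 1.18, 1.15 and 0.69. Thus 3 genes were called in each direction (29.9% higher and 26.6% lower among all genes). The CDKN2C levels overlapped, with 0.404 and 0.353 in cluster 9 against 0.435 and 0.254 in cluster 7. Log2 ratios of plain levels in replicates 1 and 2 were -0.11 and 0.47 for CDKN2C. They were 0.33 and 1.00 for CDKN3, 0.30 and 0.99 for CDKN2D, and -1.11 and -1.28 for CDKN1A. CDKN2C was not called without either library of cluster 9 or without replicate 2 of cluster 7 (adjusted p from 0.0684 to 0.301), where CDKN2D was not called either (adjusted p = 0.109). Cluster 7 had a median of 1389 UMIs per cell and cluster 9 had 23011, and library totals without TMM scaling moved the median of all genes by -0.51. With likely doublets left out, the CDKN1C level of cluster 9 went from 0.922 to 0.393.

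**Figure D5:**
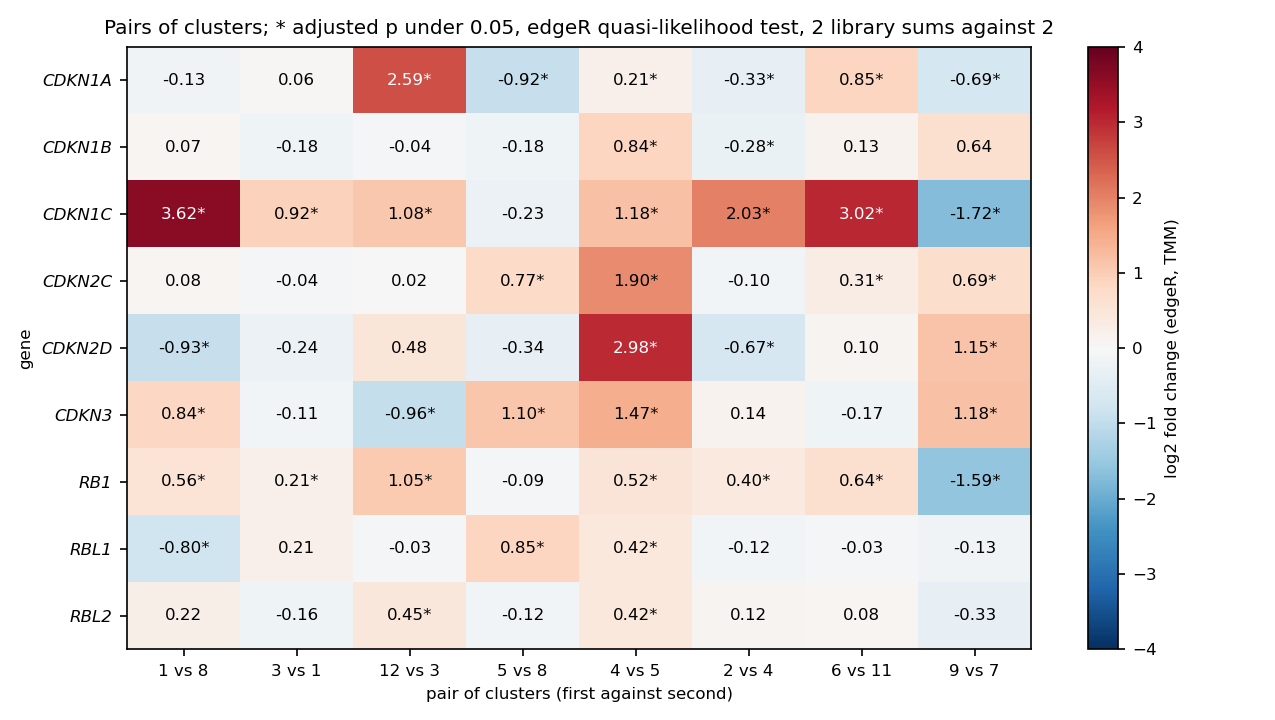
Log2 fold change of each gene (rows) in 8 pairs of clusters (columns, first against second), with colour and printed value on the log2 scale and an asterisk at adjusted p under 0.05. The CDKN1C row runs from -1.72 to 3.62, and the cluster 4 against cluster 5 column is positive in all rows.

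The partners of these genes were counted from gene lists, leaving out the scoring genes in comparisons of score classes and MYOG in that of MYOG classes. In MYOG-bearing G1-scored cells, where 26.2% of all genes were called higher and 25.2% lower, 2 of 12 cyclin and CDK genes were higher and 5 lower. CCND3, the D-type cyclin of differentiating muscle, rose by 0.68 from a mean level of 1.19 to 1.77, and CDK2 fell by 1.15 from 0.0767 to 0.0321. Of 8 genes for the turnover of CDK inhibitors, 4 were higher and 1 lower. Among the higher ones was SKP2, the F-box protein that marks p27 for degradation, which rose by 1.06. The lower one was CKS1B, which fell by 1.02, from a mean level of 0.0176 to 0.00801. The 14 E2F and DREAM complex genes tested had 4 higher and 1 lower, where E2F1 rose by 0.79 and LIN54 fell by 0.50. Of 15 genes known as p53 targets, the class to which CDKN1A itself belongs, 2 were higher and 7 lower with a median log2 fold change of -0.31, beside 7.68e-05 over all genes. TP53INP1 rose by 1.10 while SESN2 and PLK2 fell by 2.32 and 1.35. All 15 tested genes of the muscle differentiation list other than MYOG were higher.

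RBL1 and most of the E2F and DREAM genes were called higher from G1 to S and from G1 to G2/M. From G1 to G2/M, 10 of 15 list genes were higher and 0 lower, beside 23.2% of all genes in each direction. From S to G2/M, 2 of 15 were higher and 4 lower, beside 9.97% and 7.22% of all genes, and RBL1 was not called. From G1 to S, 12 of 15 were called higher and 0 lower, beside 24.5% of all genes called higher and 21.5% lower, and FOXM1 rose by 3.57 on the log2 scale. Of 9 cyclin and CDK genes, 5 were higher and 3 lower, where CDK2 rose by 2.84 and CCND3 fell by 0.74, from 1.46 to 0.911. For the p53 targets the counts were 4 higher and 7 lower of 16. FBXO5, an inhibitor of the anaphase-promoting complex, rose by 4.52 within the turnover list, in which 1 of 6 genes was higher and 1 lower. Between clusters 12 and 3, where 18.2% of all genes were called higher and 15.6% lower, 1 of 12 cyclin and CDK genes was higher and 6 lower, among which CCND1 fell by 1.44. The p53 targets had 2 higher, TP53INP1 and GADD45A, and 2 lower, PLK2 and BAX, of 14. Of the 4 other genes named for CDK inhibition or binding, 3 were higher and CDK2AP2 was lower in MYOG-bearing cells.

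Genes with the most similar levels over the 15 clusters were named by their Pearson correlation of log2 levels. The correlation is given as a description over points that share 2 libraries and differ in depth. CDKN1C went with FITM1 (r = 0.97), DES (0.97), the intermediate filament gene of muscle, and KLHL41 (0.95). CDKN1A went with LIMS2 (0.94), SIRT2 (0.93) and MAP3K7 (0.91). For CDKN2C the genes were PSRC1 (0.96), CDCA2 (0.96) and CENPN (0.95), for CDKN2D they were DBF4 (0.92), CCSAP (0.91) and INCENP (0.91), and for CDKN3 they were CDCA3, CCNB1, the mitotic cyclin B1, and KNSTRN (each 0.91). RB1 went with ARRDC1 (0.95), TP53INP1 (0.94) and NCOA1 (0.94), and RBL1 with TIPIN (0.92), NKAPL (0.91) and NUP155 (0.91). RBL2 went with INPP4A (0.88), DHX32 (0.88) and PIAS3 (0.87), and CDKN1B with YPEL1 (0.84), POLE4 (0.82) and MEAF6 (0.82). These names depended on the shallow clusters. Over the 11 deeper clusters, CDKN1A kept LIMS2 and MAP3K7 among its 3 genes, CDKN1C kept FITM1 and RB1 kept TP53INP1. CDKN1B, CDKN2C, CDKN2D, CDKN3, RBL1 and RBL2 kept none of theirs. Among the members, CDKN2C and CDKN2D were the most alike (r = 0.91 over 15 clusters and 0.96 over the 11 deeper ones). In the same order, r was 0.73 and 0.87 for CDKN1C and RB1, and -0.58 and -0.74 for CDKN1A and RBL1. Free RNA in droplets can add molecules of these genes to cells that do not make them, and its part in the low levels was not tested.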

How the data were processed

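The authors aligned reads to ARS-UCD1.2, counted UMIs and combined both libraries, thinned to equal mapped reads per cell, with Cell Ranger 3.0.2, per the labels and the paper's methods, and deposited whole UMI counts per gene and cell without further normalization. The authors also deposited, per gene and cluster, a mean UMI count put on the same total for every cluster, a log2 fold change and a p-value, of which the comparisons were not used. Multiplied by the UMIs of a cluster, the averages gave whole numbers, from which the cluster of all 19096 cells was deduced in 32 rounds, with 0 of 252240 sums differing. The library of a cell was read from the number that ends its barcode, taken to follow the order of the sample titles.

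UMIs were summed per library and group, and tested with edgeR 4.0.16 (quasi-likelihood test, TMM, filterByExpr, R 4.3.3), 2 sums against 2, adjusted by Benjamini-Hochberg over all genes tested. P-values measure only the spread between preparations of the same cells. The library number pairs the sums, since both sums of a comparison come from the same 2 libraries: over 27 comparisons their deviations correlated at 0.167 to 0.671 (over genes of 20 UMIs or more per sum). Cells with at least 5000 UMIs were scored with scanpy 1.11.5, leaving the 9 genes out, and 3100 cells were left out. Doublets were the top 8% of Scrublet scores per library, ties at the limit left out (755 and 642 cells), since its automatic thresholds called 0 and 1, a choice made after seeing the data. Shares had exact binomial intervals at 95% for counting error only. In simulated counts the test recovered 68% of genes changed 3-fold for cluster 12 against all other cells (13013 genes), 90% for clusters 12 and 3 (10614), 92% for G2/M against G1 (12598) and 85% for the MYOG classes (11391). Each simulation changed 100 genes 3-fold and 100 genes 1.5-fold. Among the unchanged genes, 11, 11, 20 and 11 were called falsely, in the same order.

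The genes named are the 9 members, the 3 genes most correlated with each (pseudocount 0.01, at least 1000 UMIs) and up to 3 called list genes per direction. Members and lists were chosen with earlier results of these data known. The MYOD1 bins and the CDKN1A cells were added later. Alternatives were DESeq2 1.42.0, library totals without TMM, no filter on low counts, the replicate block and leaving out each sum. Others left out cells under 2000 UMIs or doublets, or assigned cells by cluster profiles (89.5% of cells kept their cluster). Thinned scores, MYOG thresholds of 2 and 10, and MYOG classes with thinned counts (threshold 2) were also used. No sequences or coordinates are given, and promoter motifs were not analysed here.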

Additional observations from a re-analysis of the deposited data

How the results depend on the processing

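Of the 71 calls between pairs of clusters, score classes and MYOG classes, 52 kept their direction and their call in every setting run for them. DESeq2 lost 15 of these calls, library totals without TMM 8, and leaving out doublets and no filter on low counts 4 each. Assignment by profile, run among these calls only for pairs of clusters, lost 4 and kept 36. Leaving out each of the 4 library sums lost 14, 12, 11 and 14. Leaving out cells under 2000 UMIs, also run among these calls only for pairs of clusters, lost 2 and kept 38. It left cluster 15 without cells, so that no value was fitted there. Of the 81 calls in clusters against all other cells, 64 kept their call in every setting and 0 reversed. Between MYOG classes the 2 genes called lower became 1 with DESeq2, 1 with doublets left out, 1 to 1 on leaving out each library sum and 0 with MYOG classes from thinned cells, where the log2 fold change of RBL2 also turned from 0.29 to -0.030. The replicate block, which pairs the sums of a library, lost 0 of the 71 calls, and gave 34 higher and 58 lower for clusters against all other cells, 31 and 13 for pairs of clusters, 18 and 9 for score classes and 4 and 2 for MYOG classes. The shares of all genes called with the block were not counted, so these counts have no background beside them. Beyond the calls gained with the block, the block changed no other call. Without TMM the median log2 fold change of all genes moved by -0.11 between MYOG classes, by -0.18 for cluster 12 and by 0.65 for cluster 7 against all other cells. The cause of these differences was not tested. In counts simulated without pairing of the libraries, the test recovered 50% of genes changed 1.5-fold between MYOG classes. For cluster 12 against all other cells it recovered 36% of them. Recovery was not split by the UMIs of a gene. A gene that was not called is therefore not shown to be alike.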
